A study of Mus musculus with 17 samples.

Results

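The genes described are 10 markers of the distal convoluted tubule of the kidney: Slc12a3, Pvalb, Trpm6, Trpv5, Calb1, Wnk1, Wnk4, Klhl3, Kcnj16 and Egf. They were taken by name from what is known of the segment, with earlier results of these data known. They are 10 of the 35971 genes to which the transcripts were summed. All 10 were among the 17011 genes with enough counts to test. RNA was sequenced from kidneys of mice in which a Cre recombinase removes a stop cassette and switches on PRCC-TFE3, the fusion of a human renal cell carcinoma. There were 17 libraries in 5 genotype groups, and every mouse carried the lsl-PRCC-TFE3 KI allele at Rosa26, the controls included, in which no Cre removes the cassette. The 4 libraries called Cre(-) lacked KSP-Cre, and replicates 1 and 2 of them also carried HIF1a f/f while replicates 3 and 4 did not. The 3 KI libraries carried KSP-Cre and no floxed HIF allele. The 4 Hif1a KO libraries added HIF1a f/f, the 3 Hif2a KO libraries added HIF2a f/f, and the 3 DKO libraries had both floxed genes. The 13 libraries of these 4 groups are called Cre libraries below. KSP-Cre is driven by the Cadherin 16 promoter, which is active in tubule epithelium, so cells without that activity kept their alleles. The kidneys in the study were taken at 8 months of age. Library totals ran from 16504419 to 24668827 counts with a median of 18635282. In Cre(-) kidneys all 10 genes were detected in each library, with at least 227 counts for the member with the fewest, Pvalb. Values are given as CPM, the counts over the scaled library total in units of 1e6 counts, in the order of the replicate numbers. TPM, which also divides by transcript length, is used where genes are compared with each other. Log2 fold changes are of the scaled counts, also beside levels in TPM, unless TPM is named for them.

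The distal convoluted tubule is the short segment after the macula densa in which the thiazide-sensitive sodium chloride cotransporter, encoded by Slc12a3, takes up salt from the tubular fluid. The kinases encoded by Wnk1 and Wnk4 activate it through the kinase SPAK (Stk39), and the adaptor encoded by Klhl3 brings WNK kinases to a cullin 3 ubiquitin ligase. Mutations of WNK1, WNK4, KLHL3 or CUL3 in people cause familial hyperkalaemic hypertension. The same cells set the final magnesium and calcium content of urine, through the channels encoded by Trpm6 and Trpv5, and basolateral potassium channels that contain the Kcnj16 product set the membrane voltage that these transporters depend on.

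The targeted genes come first. Hif1a measured 102, 128, 118 and 118 CPM in Cre(-), 228, 232 and 184 in KI, 163, 193, 189 and 198 in Hif1a KO, 170.1, 199 and 256 in Hif2a KO, and 188, 174 and 203 in DKO. Each of the 13 libraries with Cre was above every Cre(-) library, and Hif1a KO 1, at 163 CPM, was the lowest of the 13. The 6 other libraries with floxed Hif1a and Cre lay within the range of KI and Hif2a KO. Its log2 fold change in Hif1a KO against KI was −0.21 ± 0.13 (SE), with an adjusted p of 0.372. Unless another tool is named, each adjusted p comes from the quasi-likelihood test of edgeR and is adjusted over all genes by the method of Benjamini and Hochberg. Epas1, which encodes HIF2a, measured 196, 205, 243 and 257 CPM in Cre(-), 173, 192 and 179 in KI, 163, 169, 166 and 179 in Hif1a KO, 146, 149 and 136 in Hif2a KO, and 156, 165 and 158 in DKO. The 3 Hif2a KO libraries were the lowest of all 17, and the log2 fold change against KI was −0.33 ± 0.09 with an adjusted p of 0.0788. These totals do not check the labels, because a floxed allele loses only its floxed segment, the values are per transcript and do not resolve single exons, and cells without Cre keep the gene. Cdh16, whose promoter drives the Cre, measured 1139, 1119, 1161 and 1221 CPM in Cre(-), 704, 577 and 625 in KI, 922, 749, 756 and 848 in Hif1a KO, 740.5, 728 and 809 in Hif2a KO, and 784, 781 and 812 in DKO. It was lower in every Cre library than in every Cre(-) library, and its log2 fold change in KI was −0.87 ± 0.09 (adjusted p 8.3e-07).

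The 10 genes differed widely in level in Cre(-) kidneys. Slc12a3 was the most abundant at 1160 ± 203 TPM (mean ± SD, n = 4) and held 42.1% of the members' summed TPM, followed by Egf with 20.9% and Wnk1 with 14.8%. Kcnj16, Calb1, Wnk4, Klhl3, Pvalb, Trpv5 and Trpm6 came next in that order, down to 7.66 ± 0.669 TPM for Trpm6. In KI kidneys Wnk1 led with 36.9% of the sum, Kcnj16 had 21.9%, Slc12a3 19.5% and Egf 1.41%. The summed level of the 10 was 2860, 3092, 2680 and 2385 TPM in Cre(-), 596, 525 and 579 in KI, 1203, 698, 822 and 728 in Hif1a KO, 988, 619 and 677 in Hif2a KO, and 759, 1192 and 876 in DKO. All 13 Cre libraries were below the 4 Cre(-) libraries, and the KI mean was 4.86-fold below the Cre(-) mean. Of the Slc12a3 level in TPM in Cre(-), 30.3% came from the coding transcript Slc12a3-201 and 19.7% to 25.3% from each of 3 transcripts annotated as retained introns. The coding transcript averaged 351 TPM in Cre(-) and 47.5 TPM in KI, where its share of the gene was 43.0%, so it fell by less than the gene did.

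The first question is what the expressed fusion goes with. In KI against Cre(-), 9 of the 10 members were lower past an adjusted p of 0.05, where 29.3% of all genes tested were lower and 60.9% changed in either direction. The same 9 had every KI library below every Cre(-) library, as had 27.7% of all genes, and Trpv5 was the member outside both counts. The median log2 fold change of the 10 was −2.28, against 0.03 over all genes tested. Fewer distal convoluted tubule cells and less RNA per cell cannot be told apart in RNA from whole kidney. In Hif1a KO against Cre(-) the same 9 members were lower without overlap, where 30.1% of all genes were lower, 27.3% were lower without overlap and 61.9% changed in either direction. In Hif2a KO they were the same 9, beside 29.9%, 28.8% and 61.9% of all genes, and in DKO the same 9, beside 27.9%, 28.5% and 58.3%. These 4 comparisons share their 4 control libraries and are not independent of each other. The members' median log2 fold change was −1.52 in Hif1a KO, −1.87 in Hif2a KO and −1.95 in DKO. The plot of each member's CPM by library shows the gap for 9 genes, and the plot of fold changes shows its size in each group.

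**Figure D1:**
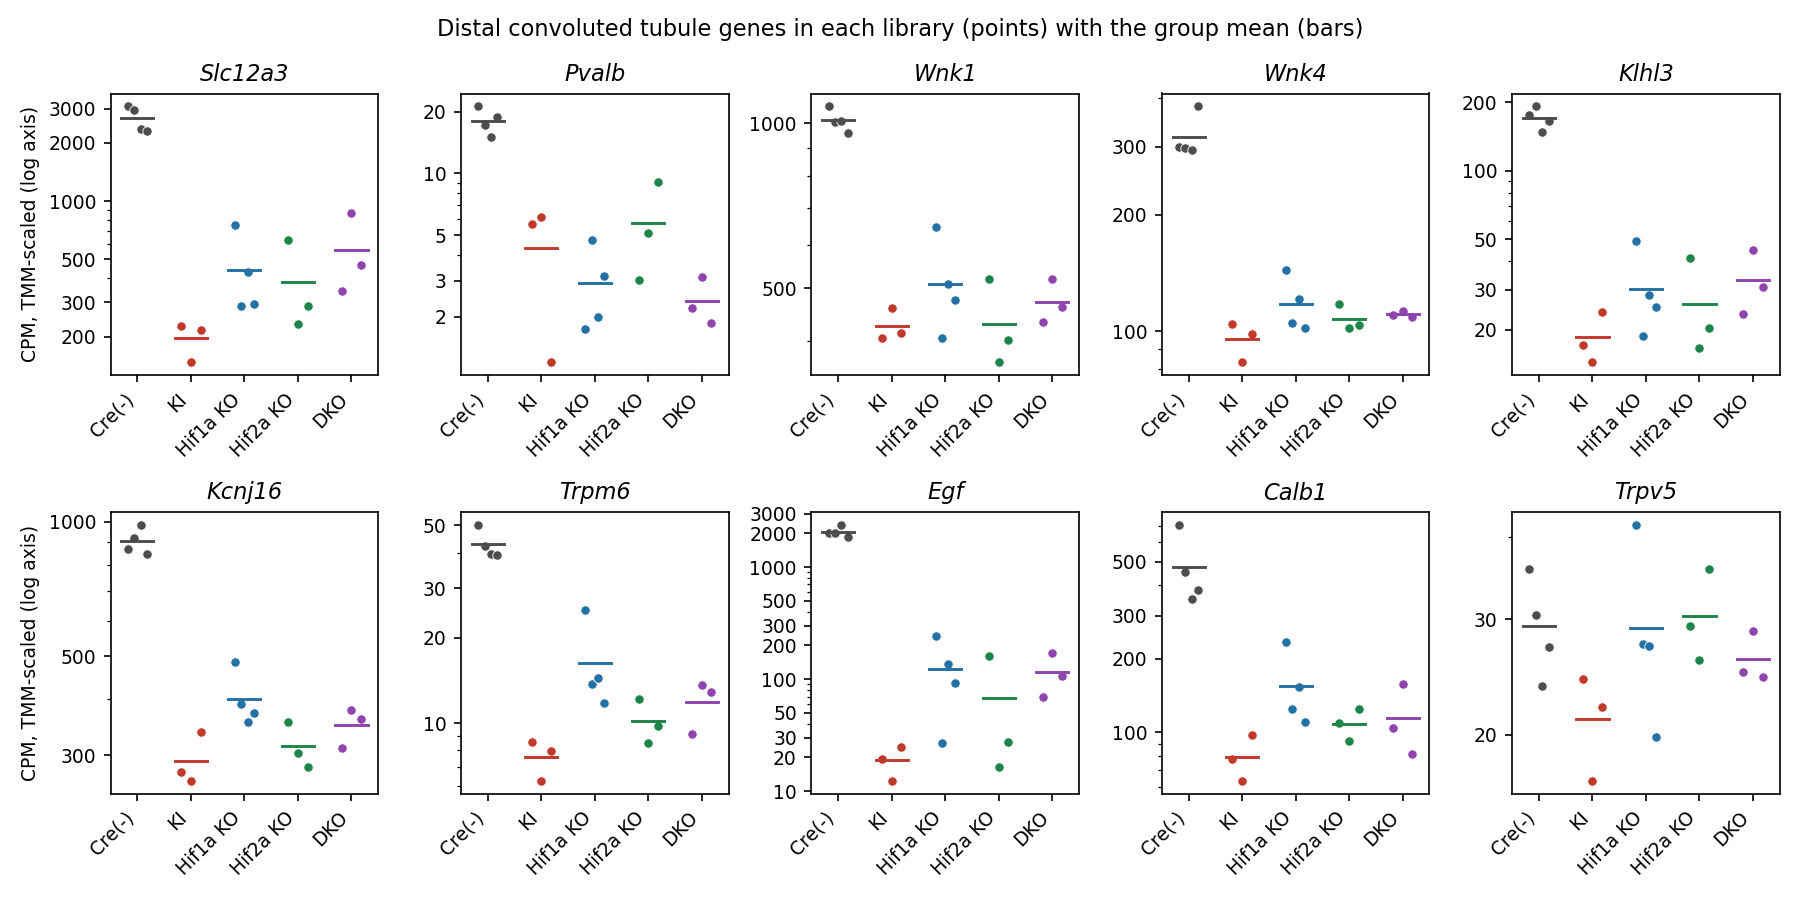
CPM of each of the 10 genes in each library (points, log axes that differ between panels) by genotype group, with the group mean as a bar. The Cre(-) points stand above all others for 9 genes, while for Trpv5 the groups overlap.

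**Figure D2:**
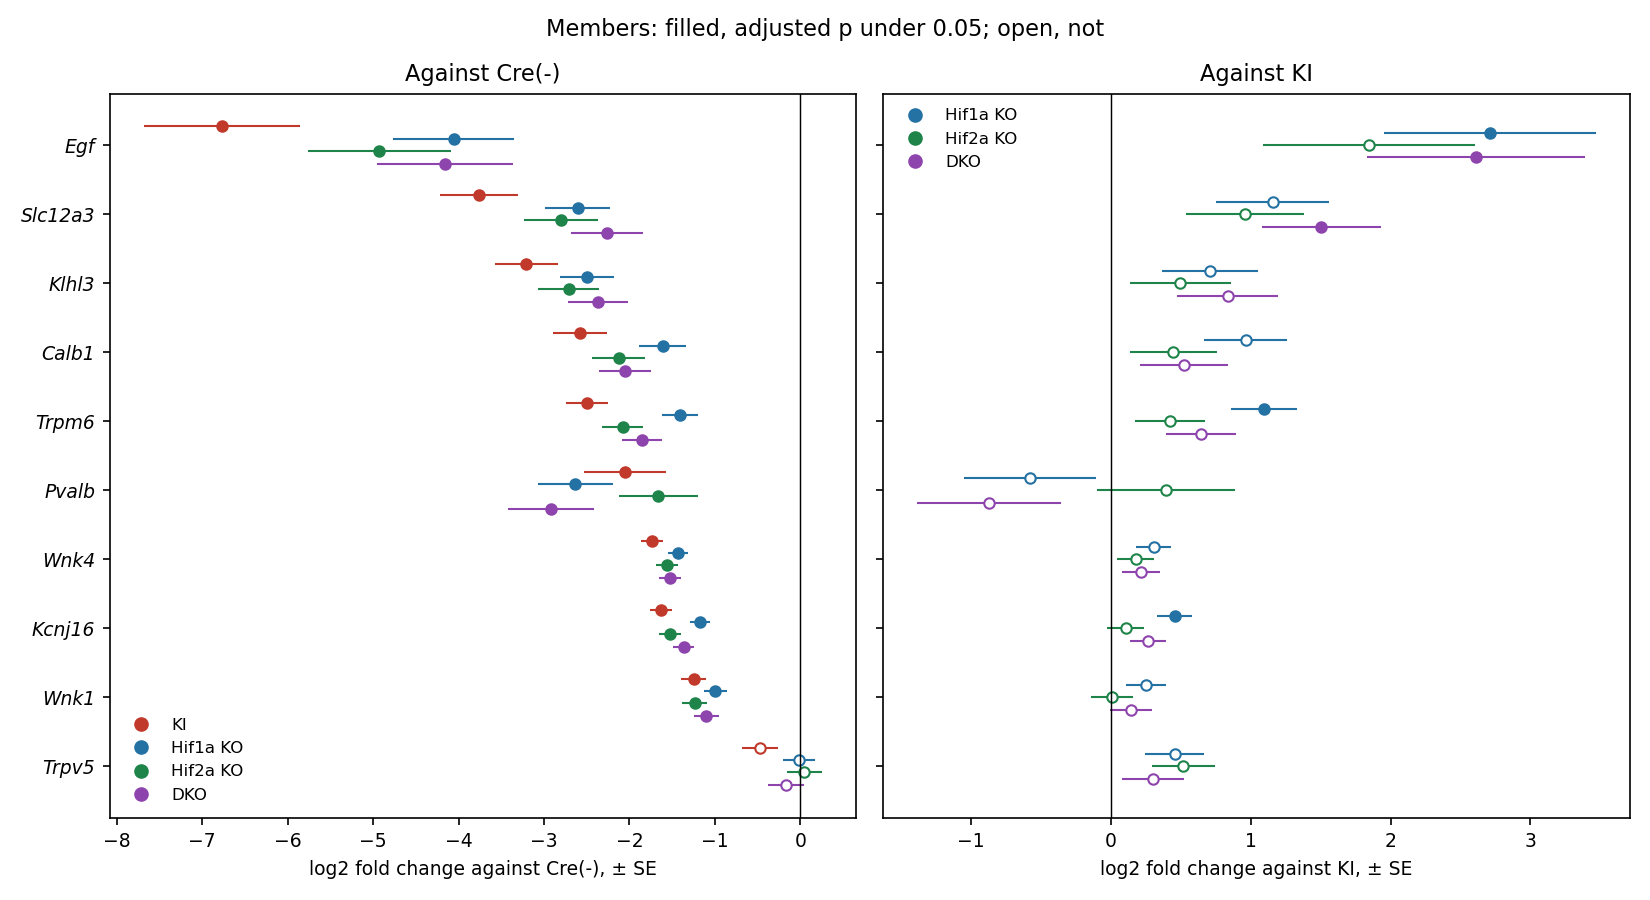
Log2 fold change ± SE of each gene, left against Cre(-) and right against KI, with filled points past an adjusted p of 0.05. Egf is the farthest below Cre(-) in each group, next come Slc12a3 in KI and Hif2a KO and Pvalb in Hif1a KO and DKO, and 5 points in the right panel are filled.

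Slc12a3 (ENSMUSG00000031766, chr8:94329201-94366214) encodes the cotransporter that defines the segment. It measured 3091, 2975, 2356 and 2294 CPM in Cre(-), 228, 147 and 217 in KI, 752, 286, 428 and 295 in Hif1a KO, 631, 233 and 287 in Hif2a KO, and 344, 869 and 467 in DKO. The lowest Cre(-) library was above the highest Cre library, DKO 2, and the 3 KI libraries were the 3 lowest of the 17. The log2 fold change in KI was −3.76 ± 0.45 (adjusted p 3.7e-06), a mean 13.6-fold lower than in Cre(-), with every KI library below every Cre(-) library. It was −2.60 ± 0.38 in Hif1a KO (2.69e-05), −2.80 ± 0.43 in Hif2a KO (4.45e-05) and −2.26 ± 0.42 in DKO (0.000287). Pvalb (ENSMUSG00000005716, chr15:78191114-78206400) encodes parvalbumin, a calcium-buffering protein of the early part of the segment, and had few counts, 21 in KI 3. It measured 21.2, 17.1, 15.0 and 18.9 CPM in Cre(-), 5.69, 6.14 and 1.20 in KI, 1.73, 4.72, 1.99 and 3.16 in Hif1a KO, 3.02, 5.12 and 9.06 in Hif2a KO, and 2.19, 3.11 and 1.85 in DKO. Every Cre(-) library was above every other, and KI 3 was the lowest of all. The log2 fold change was −2.05 ± 0.48 in KI (adjusted p 0.00158) and lay between −2.92 in DKO and −1.66 in Hif2a KO for the other groups. Pvalb was the 1 member whose group means in Hif1a KO and DKO were below the KI mean, by less than the test could separate. Skeletal muscle also makes parvalbumin. The 10 skeletal muscle markers summed to 6.58 to 12.4 TPM in a library, beside a Pvalb level of 22.3 ± 2.60 TPM in Cre(-) and 7.63 ± 4.94 TPM in KI. The sum did not fall in the Cre libraries, but the muscle gene Myh1 did, from 170, 271, 151 and 253 counts in Cre(-) to at most 5 in any Cre library (−7.71 ± 0.85 in KI, adjusted p 1.36e-06), and the part of muscle in the Pvalb level was not tested.

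Since 9 of the 10 members were lower in each group, the RefSeq promoter windows of the genes were searched for the letters of 2 motifs. A window was found for 9 of the 10 members (14 windows, GRCm38.p6; none for Calb1). An M-box, the site of the MiT/TFE family to which TFE3 belongs, was taken as TCACATGA, TCACGTGA, TCATATGA or TCATGTGA, and the hypoxia response core as ACGTG or GCGTG, on both strands; TCACGTGA contains ACGTG, so these overlap. In the 250 bases before the start, no member's window held an M-box (1 Pvalb window had one that reached past the start), as against 1.88% of all 32817 windows, and 7 windows of 7 members held the hypoxia core, as against 38.6% of all windows. The 7 members were Pvalb, Trpm6, Trpv5, Wnk1, Wnk4, Kcnj16 and Egf, and of the windows of Slc12a3 and Klhl3 none had the core. The windows of the most abundant member, of the one that fell most, of the one that did not pass the test and of one kinase gene are printed 5′ to 3′ with the hypoxia core in capitals. Their positions are chr8:94328958-94329207, plus strand, for Slc12a3; chr3:129755323-129755572, minus strand, for the outer Egf start; chr6:41680724-41680973, minus strand, for Trpv5; and chr11:101260317-101260566, plus strand, for Wnk4.
Slc12a3: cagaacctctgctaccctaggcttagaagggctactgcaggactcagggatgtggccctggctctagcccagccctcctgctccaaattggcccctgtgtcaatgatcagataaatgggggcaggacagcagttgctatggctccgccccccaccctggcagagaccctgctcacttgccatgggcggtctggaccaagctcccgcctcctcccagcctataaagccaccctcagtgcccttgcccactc
Egf: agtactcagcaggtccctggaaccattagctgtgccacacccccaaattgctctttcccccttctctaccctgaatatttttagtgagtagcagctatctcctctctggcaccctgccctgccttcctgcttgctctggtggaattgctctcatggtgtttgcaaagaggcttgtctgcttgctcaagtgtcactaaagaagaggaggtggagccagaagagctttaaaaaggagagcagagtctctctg
Trpv5: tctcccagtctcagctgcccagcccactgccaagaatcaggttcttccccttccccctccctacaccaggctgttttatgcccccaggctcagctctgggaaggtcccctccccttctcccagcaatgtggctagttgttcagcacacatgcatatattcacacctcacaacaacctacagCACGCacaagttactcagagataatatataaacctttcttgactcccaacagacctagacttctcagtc
Wnk4: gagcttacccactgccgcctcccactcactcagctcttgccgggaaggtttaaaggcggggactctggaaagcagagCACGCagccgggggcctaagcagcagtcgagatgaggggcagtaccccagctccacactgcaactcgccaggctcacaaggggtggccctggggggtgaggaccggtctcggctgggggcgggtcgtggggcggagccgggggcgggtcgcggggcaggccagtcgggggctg
A match is a description of letters in a window and says nothing of binding. Trpv5, whose level did not pass the test, and Wnk4, which was lower in every group, both held the core, while Slc12a3 and the outer Egf window held neither motif.

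Wnk1 (ENSMUSG00000045962, chr6:119923969-120038672) and Wnk4 (ENSMUSG00000035112, chr11:101260567-101277409) encode the kinases upstream of SPAK. Wnk1 measured 1073, 1003, 1008 and 961 CPM in Cre(-), 406, 461 and 414 in KI, 646, 406, 508 and 475 in Hif1a KO, 519.9, 366 and 401 in Hif2a KO, and 434, 520.2 and 461 in DKO, and Wnk4 298, 298, 294 and 381 CPM in Cre(-), 105, 83.2 and 98.2 in KI, 144, 105, 121 and 102 in Hif1a KO, 118, 102 and 104 in Hif2a KO, and 110.4, 113 and 109 in DKO. For both genes the Cre(-) libraries were above all others, and the Wnk4 values of the 13 Cre libraries stayed between 83.2 and 144 CPM. The log2 fold changes in KI were −1.24 ± 0.15 for Wnk1 (adjusted p 2.71e-06) and −1.74 ± 0.13 for Wnk4 (3.3e-08), and with Kcnj16 these were the smallest of the 9 and had the smallest errors. In the 3 other groups they ran from −1.24 to −0.99 for Wnk1 and from −1.56 to −1.43 for Wnk4. Klhl3 (ENSMUSG00000014164, chr13:58000228-58113592), whose product targets WNK kinases for degradation, measured 176, 192, 148 and 165 CPM in Cre(-), 17.2, 14.4 and 23.9 in KI, 49.1, 18.8, 28.3 and 25.2 in Hif1a KO, 41.2, 16.5 and 20.4 in Hif2a KO, and 23.4, 44.8 and 30.9 in DKO. It fell further than the kinases, by 3.20 on the log2 scale in KI (adjusted p 2.27e-06); its log2 fold change was −2.49 in Hif1a KO, −2.71 in Hif2a KO and −2.37 in DKO, and no library overlapped with Cre(-). Gm16199, a pseudogene on the opposite strand, overlaps Wnk1, and its part in the Wnk1 counts was not tested.

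Wnk1 has a second start inside the gene from which the distal convoluted tubule makes a short form without most of the kinase domain. Of its 26 annotated transcripts, 6 began at the upstream start and 1, Wnk1-201, at the internal exon, chr6:119981118-119981448 on the minus strand of GRCm38, 331 bases long. That first exon joins directly to exon 5 of the long form. The 60 bases around both junctions, 30 on each side, show what tells the forms apart, with the shared exon (chr6:119972768-119972856) in capitals; the long form's exon 4 is chr6:119990092-119990249.
Wnk1-202, long: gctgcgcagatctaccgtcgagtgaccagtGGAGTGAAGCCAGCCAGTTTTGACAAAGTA
Wnk1-201, short: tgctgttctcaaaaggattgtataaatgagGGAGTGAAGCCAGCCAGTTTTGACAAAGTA
Before the junction 5 of 30 bases were identical. Levels of the internal start rested on few counts, a mean of 128 in Cre(-) and 10.0 in KI, and since Wnk1-201 is annotated with 4 exons its level reflects the reads given to those exons.

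The internal start measured 12.7, 24.9, 15.3 and 7.75 TPM in Cre(-), 1.42, 1.58 and 1.46 in KI, 9.24, 1.28, 3.19 and 3.26 in Hif1a KO, 4.38, 1.43 and 1.53 in Hif2a KO, and 3.51, 6.12 and 5.22 in DKO. The upstream start measured 51.2, 59.9, 62.5 and 48.3 TPM in Cre(-), 34.5, 44.4 and 27.1 in KI, 49.5, 31.1, 44.9 and 44.5 in Hif1a KO, 42.2, 30.2 and 38.4 in Hif2a KO, and 40.9, 43.4 and 44.2 in DKO. The Cre(-) mean of the internal start was 10.2-fold above KI, and that of the upstream start 1.57-fold. Hif1a KO 1 was the Cre library with the most internal start and was above Cre(-) 4. As a share of all Wnk1 TPM the internal start held 3.03, 5.74, 3.72 and 2.08 percent in Cre(-), 0.692, 0.733 and 0.705 in KI, 2.82, 0.603, 1.36 and 1.42 in Hif1a KO, 1.63, 0.721 and 0.767 in Hif2a KO, and 1.5, 2.22 and 2.13 in DKO. The mean over the 13 Cre libraries was 1.33% and over Cre(-) 3.64%, a difference of −2.31 percentage points (2-sided exact permutation test over 2380 arrangements, p = 0.00336). All but 3 Cre libraries were below the lowest Cre(-) library; Hif1a KO 1, DKO 2 and DKO 3 were above it. KI against Cre(-) differed by −2.93 points, and its exact permutation p of 0.0571 is the smallest that 3 against 4 libraries can give. Taken over the upstream and internal starts alone, which was chosen after seeing the data, the internal start held 7.24% in the 13 libraries and 20.7% in Cre(-), −13.4 points apart (exact permutation p = 0.00168). With Cre(-) 3 and 4 as the only controls the share of all Wnk1 differed by −1.57 points with an exact permutation p of 0.0762, and without 1 library at a time by −2.83 to −1.61 points, the smallest difference without Cre(-) 2.

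**Figure D3:**
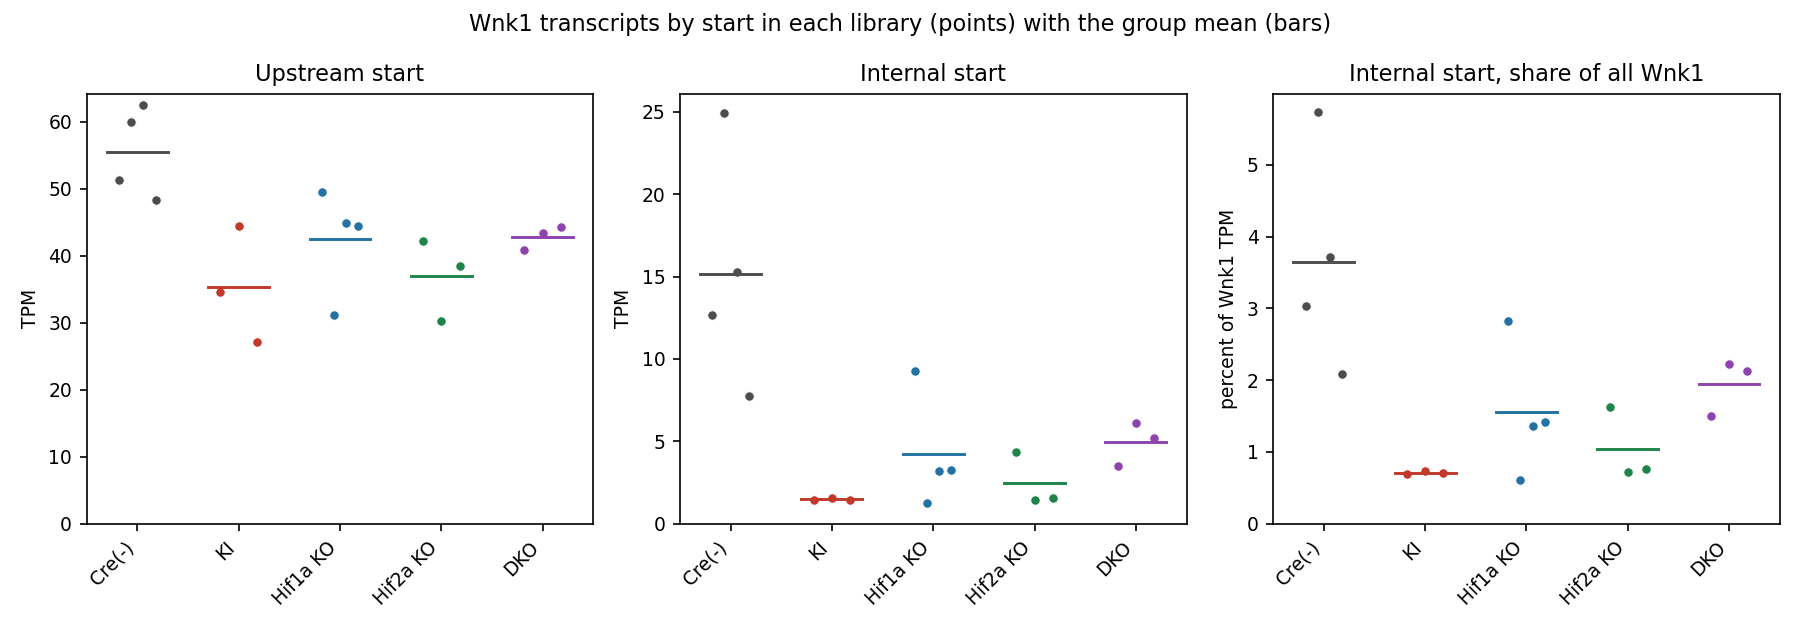
TPM of Wnk1 transcripts from the upstream start (left) and the internal start (middle), and the internal start as a percentage of all Wnk1 TPM (right), in each library (points) by group, with the group mean as a bar. The internal start averages 15.2 TPM in Cre(-) and 1.48 TPM in KI, and Hif1a KO 1, DKO 2 and DKO 3 reach into the Cre(-) range of the share.

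Kcnj16 (ENSMUSG00000051497, chr11:110968033-111027968) encodes Kir5.1, which forms a basolateral potassium channel with the Kcnj10 product. It measured 868, 919, 985 and 847 CPM in Cre(-), 275, 263 and 338 in KI, 485, 391, 356 and 373 in Hif1a KO, 356, 304 and 283 in Hif2a KO, and 312, 379 and 362 in DKO. The highest Cre library, Hif1a KO 1 at 485 CPM, was below the lowest Cre(-) library at 847, and within each group the libraries differed little, by at most 1.36-fold. The log2 fold change in KI was −1.63 ± 0.13 (adjusted p 5.43e-08), and in the 3 knockout groups it was −1.17, −1.53 and −1.37.

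Trpm6 (ENSMUSG00000024727, chr19:18749983-18892511) encodes the apical magnesium channel of the segment. Egf (ENSMUSG00000028017, chr3:129677565-129755316), read in the distal convoluted tubule and the thick ascending limb, encodes the precursor of a hormone that raises the activity of that channel. Trpm6 measured 50.3, 42.3, 39.7 and 39.3 CPM in Cre(-), 8.56, 6.25 and 7.93 in KI, 25.1, 13.8, 14.4 and 11.8 in Hif1a KO, 12.2, 8.49 and 9.77 in Hif2a KO, and 9.16, 13.6 and 12.9 in DKO. Cre(-) was above all others, KI was the lowest group, and Hif1a KO 1 had the highest Cre value. The log2 fold change in KI was −2.5 ± 0.24 (adjusted p 4.27e-07), against −1.41 ± 0.21 in Hif1a KO, −2.08 ± 0.24 in Hif2a KO and −1.85 ± 0.23 in DKO. Egf measured 2004, 2022, 2385 and 1869 CPM in Cre(-), 19.5, 12.4 and 25 in KI, 242, 26.8, 136 and 92.4 in Hif1a KO, 160.4, 16.5 and 27.2 in Hif2a KO, and 69.2, 171 and 107 in DKO. No other member fell as far in any of the 4 groups. Its highest and lowest libraries differed 9.01-fold within Hif1a KO and 9.70-fold within Hif2a KO, more than those of any other member there, and 2.02-fold within KI, 2.47-fold within DKO and 1.28-fold within Cre(-). The KI mean was 109-fold below Cre(-), a log2 fold change of −6.77 ± 0.92 (adjusted p 1.18e-05). In Hif2a KO it was −4.93 ± 0.83 (adjusted p 0.000105), and −6.56 without Hif2a KO 1, the library in which Egf was high. It was −4.06 ± 0.70 in Hif1a KO and −4.16 ± 0.80 in DKO.

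Calb1 (ENSMUSG00000028222, chr4:15881264-15908064) encodes calbindin-D28k, which carries calcium across the cell, and Trpv5 (ENSMUSG00000036899, chr6:41652173-41680769) the channel by which calcium enters it. Calb1 measured 708, 455, 353 and 383 CPM in Cre(-), 77.9, 63.4 and 97.9 in KI, 235, 124, 153 and 110 in Hif1a KO, 109, 92.2 and 125 in Hif2a KO, and 104, 158 and 81.6 in DKO. Cre(-) 1 was well above the 3 other controls, and the lowest control was still above the highest Cre library, Hif1a KO 1. The log2 fold change in KI was −2.57 ± 0.32 (adjusted p 4.58e-06), with −1.61, −2.13 and −2.05 in Hif1a KO, Hif2a KO and DKO. The 6 neuron markers, of a tissue rich in calbindin, summed to 1.29 to 4.47 TPM in any library, while Calb1 averaged 141 TPM in Cre(-) and 35.7 TPM in KI. Trpv5 measured 35.8, 30.5, 23.7 and 27.2 CPM in Cre(-), 24.3, 17.0 and 22.1 in KI, 41.8, 27.5, 27.3 and 19.9 in Hif1a KO, 29.2, 26.0 and 35.7 in Hif2a KO, and 24.9, 28.8 and 24.5 in DKO. The groups overlapped: KI 1 was above Cre(-) 3, and single libraries of Hif1a KO and Hif2a KO reached the top of the Cre(-) range or passed it. Its log2 fold change was −0.47 ± 0.21 in KI (adjusted p 0.0648), −0.01 ± 0.19 in Hif1a KO (0.959), 0.05 ± 0.21 in Hif2a KO (0.849) and −0.17 ± 0.21 in DKO (0.51). A p that misses the threshold does not show that the level was the same. The KI comparison crossed the threshold by DESeq2 (adjusted p 0.0461), in a fit of these 2 groups (0.0379), with the replicate number as a block (0.0214), without Cre(-) 3 (0.0408) and against Cre(-) 1 and 2 alone (0.0372).

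The direction of Trpv5 also depended on the scale. In TPM it measured 11.9, 11.3, 8.29 and 9.01 TPM in Cre(-), 12.6, 8.50 and 9.90 in KI, 18.7, 13.2, 12.7 and 9.93 in Hif1a KO, 13.9, 13.2 and 19.2 in Hif2a KO, and 13, 14.2 and 13.1 in DKO. On that scale KI and Cre(-) overlapped, and 9 of the 10 knockout libraries were above every KI and Cre(-) library. The fit of TPM changed the scale, the test and the number of genes (20280 against 17011) at once. The median of all genes moved with it, and which of these moved it was not tested. In KI against Cre(-) the median was 0.29 on the log2 scale by limma on log2(TPM + 1), against 0.03 in the fit of scaled counts. Of the genes past the threshold 77.9% were higher, against 51.9%. The factors that scaled the library totals in the fit of counts were 0.793 to 0.833 in Cre(-) and 0.974 to 1.118 in the Cre libraries. The TPM were not scaled by them. For Trpv5 the log2 difference became 0.03 in KI (adjusted p 0.924), 0.38 in Hif1a KO (0.08), 0.56 in Hif2a KO (0.0193) and 0.39 in DKO (0.0906), so the sign flipped in KI, Hif1a KO and DKO and the Hif2a KO difference passed the threshold. The other 9 members were lower than in Cre(-) on both scales in all 4 groups. Trpv6, the neighbouring and similar channel gene, was higher than in Cre(-) past the threshold in each of the 4 groups. It measured 2.95, 1.98, 1.85 and 3.22 CPM in Cre(-), 7.88, 3.39 and 6.05 in KI, 8.19, 12.7, 9.06 and 5.58 in Hif1a KO, 4.84, 11.4 and 9.62 in Hif2a KO, and 8.82, 7.59 and 13.1 in DKO. Every Cre library was above every Cre(-) library, at 28 to 269 counts, and the KI log2 fold change was 1.21 ± 0.36 (adjusted p 0.00957). Trpv6 was named after its values were seen, and whether reads were shared between the 2 similar genes was not tested.

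The next question is whether the loss of a HIF gene goes with a change in the presence of the fusion. In Hif1a KO against KI, 3 of the 10 members were higher past the threshold, where 2.57% of all genes tested were higher and 5.44% changed. No member was lower. Trpm6 was higher by a log2 fold change of 1.09 ± 0.24 (adjusted p 0.0184), Kcnj16 by 0.46 ± 0.12 (0.0433) and Egf by 2.71 ± 0.76 (0.0489). For these 3 all 4 Hif1a KO libraries were above all 3 KI libraries. Calb1 (0.96 ± 0.30, adjusted p 0.0716) and Slc12a3 (1.16 ± 0.40, 0.107) did not overlap either but missed the threshold, so 5 members were higher without overlap, as were 8.96% of all genes. The 3 calls rested on single libraries. Without KI 2, the library with the highest level of adipocyte markers, the adjusted p rose to 0.0738 for Trpm6, 0.148 for Kcnj16 and 0.145 for Egf, so no member was left past the threshold, as in a fit of these 2 groups alone. The log2 fold changes with the 2 KI libraries left were 0.97, 0.39 and 2.48, each still positive. Kcnj16 also missed it without KI 1 (0.114), Hif1a KO 1 (0.106), Hif1a KO 3 (0.0582) or Hif1a KO 4 (0.0524), and Egf without KI 1 (0.106), KI 3 (0.0962), Hif1a KO 1 (0.123), Hif1a KO 3 (0.103) or Hif1a KO 4 (0.0629). With the replicate number as a block Kcnj16 (0.0748) and Egf (0.0845) missed it, and with no filter on low counts Kcnj16 did (0.0542). DESeq2 passed 4 members, the same 3 and Calb1 (adjusted p 0.0138), and limma on TPM passed Trpm6 alone.

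In Hif2a KO against KI, none of the 10 members passed the threshold in edgeR's test, where 1.39% of all genes did and 0.741% were higher. At an unadjusted p under 0.05 there were 3, and DESeq2 and limma also passed 0. All 10 fold changes were positive, from 0.01 for Wnk1 to 1.84 ± 0.76 for Egf (adjusted p 0.203). Slc12a3 (0.96 ± 0.42, 0.231) and Trpv5 (0.52 ± 0.22, 0.219) were the 2 members in which every Hif2a KO library was above every KI library, as 9.52% of all genes were. Without Hif2a KO 1 the Egf log2 fold change was 0.20 and that of Slc12a3 0.40, and that library had the highest value of its group for both. In DKO against KI 2 members were higher, Slc12a3 (1.51 ± 0.43, adjusted p 0.0324) and Egf (2.61 ± 0.78, 0.0388), where 6.53% of all genes were higher and 12.7% changed. Trpm6, Wnk4 and Trpv5 were also higher in every DKO library than in every KI library and missed the threshold, so 5 members did not overlap, beside 16.5% of all genes. These calls rested on single libraries too. Slc12a3 missed the threshold without KI 2 (adjusted p 0.0993), KI 3 (0.0837), DKO 2 (0.169) or DKO 3 (0.0622), and Egf without KI 1 (0.0794), KI 2 (0.112), KI 3 (0.091), DKO 2 (0.135) or DKO 3 (0.0839). Without KI 2 the log2 fold changes were 1.33 for Slc12a3 and 2.38 for Egf.

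The knockout groups were not told apart by any member. In Hif1a KO against Hif2a KO edgeR's test passed 0 of the 10 (0.429% of all genes), with 2 at an unadjusted p under 0.05, Trpm6 and Kcnj16. In DKO against Hif1a KO it passed 0 (0.406%) with 0 unadjusted, and in DKO against Hif2a KO 0 (0.00588%) with 1, Pvalb. DESeq2 and limma passed 0 in all 3. The Kcnj16 libraries of Hif1a KO and Hif2a KO did not overlap, 0.35 apart on the log2 scale (adjusted p 0.187), a separation in the higher direction that 8.31% of all genes had. So an effect past the threshold in Hif1a KO and not in Hif2a KO was not shown to differ between them. By mean CPM, Cre(-) was the highest group for 9 members and the group below it differed from it past the threshold in each. Below Cre(-) no neighbouring groups differed past the threshold for any member. KI was the lowest group for 9 members, all but Pvalb. Hif1a KO ranked next below Cre(-) for Trpm6, Calb1, Wnk1, Wnk4, Kcnj16 and Egf, DKO for Slc12a3 and Klhl3, and Hif2a KO for Pvalb. For Trpv5 the order was Hif2a KO, Cre(-), Hif1a KO, DKO and KI, with no neighbours past the threshold.

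The change against KI was not limited to the members. In Hif1a KO 6 of 10 proximal tubule markers and 4 of 8 thick ascending limb markers were higher than in KI past the threshold, and in DKO 6 and 6. Of all genes tested 2.57% were higher in Hif1a KO and 6.53% in DKO. Cdh16 was higher in both (0.37 ± 0.09, adjusted p 0.0297; 0.32 ± 0.10, 0.0397), and Gpnmb, a gene of the response to TFE3 fusions, was lower (−1.35 ± 0.34, 0.0318; −1.80 ± 0.37, 0.00824). In Hif2a KO against KI 1 thick ascending limb marker passed, Umod (1.21 ± 0.28, 0.0489), with 6 at an unadjusted p under 0.05, 4 by DESeq2 and 1 by limma, and 0 proximal tubule markers in edgeR's test, with 7 at an unadjusted p under 0.05, 2 by DESeq2 and 0 by limma. These calls changed with single libraries left out and with the fit. The proximal tubule count fell to 0 in Hif1a KO without Hif1a KO 1, KI 2 or KI 3 and in a fit of the 2 groups, and to 1 with the replicate block, and in DKO it fell to 0 without DKO 2 or KI 2. The thick ascending limb count fell to 1 in Hif1a KO without KI 2 and in a fit of the 2 groups, and to 4 in DKO without DKO 2, DKO 3 or KI 3 and in a fit of the 2 groups. In Hif2a KO it rose to 4 without KI 1, and the Umod call in Hif2a KO was lost without any of the Hif2a KO libraries, KI 2 or KI 3. That call was also lost with the replicate block, in a fit of the 2 groups and by limma on log2(TPM + 0.1). Cdh16 missed the threshold in Hif1a KO without KI 2 (adjusted p 0.118), KI 3 (0.0798), Hif1a KO 1 (0.0762) or Hif1a KO 4 (0.0605), and in DKO without KI 2 (0.138), KI 3 (0.113), DKO 1 (0.0655), DKO 2 (0.104) or DKO 3 (0.121). With 1 library left out its log2 fold change was 0.30 to 0.45 in Hif1a KO and 0.25 to 0.40 in DKO. Gpnmb missed it in Hif1a KO without KI 1 (0.0547), KI 2 (0.0778), KI 3 (0.0807), Hif1a KO 1 (0.0861) or Hif1a KO 3 (0.1003), with log2 fold changes of −1.52 to −1.16 with 1 library left out, and in DKO it held with any 1 library left out. In Hif1a KO both also missed it with the replicate block (Cdh16 0.0611, Gpnmb 0.0665) and in a fit of the 2 groups (0.114, 0.0578). Cdh16 missed it there with no filter on low counts (0.0531) and by limma on log2(TPM + 1) (0.0803) too. In DKO Cdh16 missed it in a fit of the 2 groups (0.34, adjusted p 0.0815) and with no filter on low counts (0.33, 0.0728).

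Within the knockout groups the same library was often the highest. Hif1a KO 1 had the highest CPM of its group for 9 members, DKO 2 for all 10 and Hif2a KO 1 for 7. In KI the highest values were spread over the libraries, with 4, 2 and 4 members. Hif1a KO 1, DKO 2 and Hif2a KO 1 also had the lowest CPM of Gpnmb in their groups: 3269, 7175, 4539 and 7452 in Hif1a KO, 4953, 8779 and 11390 in Hif2a KO and 6415, 2806 and 3113 in DKO. KI measured 13010, 14210 and 15630 and Cre(-) 1.85, 2.14, 0.993 and 1.33. The library with the least Gpnmb thus had the most Slc12a3 in each of these groups. In KI, too, KI 1 had the least Gpnmb and the most Slc12a3, within a narrower range. The part of the amount of fusion-expressing tissue in each library in these differences was not tested.

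The pathways around the members were followed in 4 lists. In the list of the WNK cascade, 9 of 14 genes were lower and 0 higher in KI against Cre(-), with a median log2 fold change of −0.48, where 29.3% of all genes tested were lower. Without the members Wnk1, Wnk4 and Klhl3, 6 of 11 were lower and the median was −0.47. This depended on the scale. By limma on log2(TPM + 1), 2542 of all 20280 genes were lower and 8967 higher in KI. In the list 4 were lower and 3 higher on that scale, and 5 changed sign, Stk39, Cab39, Cul3, Klhl2 and Sgk1. Ppp1r1a, an inhibitor of protein phosphatase 1, fell furthest, from 179, 177, 196 and 227 CPM in Cre(-) to 9.54, 13.4 and 11.1 in KI (−4.10 ± 0.51, adjusted p 4.64e-06). Every KI library was below every Cre(-) library, as for Klhl3. Sgk1, an aldosterone-induced kinase gene and with Wnk1 the most abundant of the list in TPM, did not pass the threshold (−0.48 ± 0.24, 0.103). Stk39, which encodes SPAK, had a log2 fold change of −0.26 ± 0.08 in KI (0.00793), 0.08 with an adjusted p of 0.554 by limma on TPM, and 0.21 ± 0.07 in Hif1a KO against Cre(-) (0.0157), where it was the 1 gene of the list above Cre(-). Against KI, 2 genes were higher in Hif1a KO and in DKO, Stk39 (0.47 ± 0.08, 0.00598; 0.31 ± 0.08, 0.0244) and Cab39l (0.38 ± 0.09, 0.0243; 0.37 ± 0.09, 0.0211), which encodes an MO25 scaffold of SPAK. The count against KI dropped to 1 in Hif1a KO without Hif1a KO 1, 3 or 4 or KI 1, and in DKO to 0 without DKO 3 and to 1 without any of the other DKO and KI libraries.

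Of 12 magnesium-handling genes, 7 were lower and 3 higher in KI, with a median of −0.74, and in TPM 6 were lower and 5 higher. The 3 were Slc41a3 (0.73 ± 0.20, adjusted p 0.00571), Cnnm3 (0.39 ± 0.15, 0.0335) and the EGF receptor gene Egfr (0.32 ± 0.12, 0.0284), named after their values were seen. Fxyd2, a subunit of the sodium pump, was the most abundant at 3668 TPM in Cre(-) and 938 in KI. Its log2 fold change was −2.43 ± 0.29 in scaled counts (2.88e-06) and −1.99 by limma on TPM. The members Egf and Trpm6 fell most in the list. Without them, 5 of 10 were lower and the median was −0.26. Of 10 genes of distal calcium handling, 7 were lower and 1, Trpv6, higher in KI, with a median of −1.77, and 6 of 8 without the members Calb1 and Trpv5; in TPM it was 7 and 2 of the 10. Kl, which encodes klotho, fell from 162 to 19.3 TPM, and S100g, calbindin-D9k, the most abundant, from 951 to 303 TPM. In scaled counts the log2 fold changes were −3.54 ± 0.35 for Kl (5.12e-07) and −2.11 ± 0.39 for S100g (0.000256). By limma on TPM they were −3.02 and −1.595. The sodium-calcium exchanger gene Slc8a1 was lower in KI (−2.36 ± 0.23) and higher than KI in Hif1a KO (0.92 ± 0.21, 0.024) and DKO (1.12 ± 0.23, 0.00715), as was Kl (1.16 ± 0.32, 0.0456; 1.47 ± 0.34, 0.0127). In Hif2a KO both missed the threshold, Slc8a1 with the same log2 fold change as in Hif1a KO (0.92 ± 0.23, 0.0532) and Kl with 0.99 ± 0.33 (0.127). Casr, the calcium-sensing receptor gene, was higher in DKO too (0.94 ± 0.25, 0.027).

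Kcnj10, the partner of Kcnj16, measured 139.7, 134, 138 and 133 CPM in Cre(-), 28.9, 21.4 and 25 in KI, 71.2, 32.1, 54.1 and 39.4 in Hif1a KO, 57.8, 29.8 and 34.1 in Hif2a KO, and 37.3, 73.7 and 46.9 in DKO. It fell in KI by more than Kcnj16 did (−2.44 ± 0.30, adjusted p 3.92e-06), and the difference between the 2 genes was not tested. In DKO it was higher than in KI (1.07 ± 0.30, 0.0304), which was no longer past the threshold without KI 2 (0.97, adjusted p 0.0921), KI 3 (1.07, 0.0912), DKO 2 (0.75, 0.159) or DKO 3 (1.15, 0.0622), or in a fit of these 2 groups (1.09, 0.0516). Bsnd, which encodes barttin, had a log2 fold change of −3.20 ± 0.40 in KI (5.17e-06) and was higher in DKO than in KI (1.76 ± 0.40, 0.0121), which was no longer past the threshold without KI 3 (1.62, adjusted p 0.057) or DKO 3 (1.56, 0.0537). Of 9 genes of aldosterone-sensitive sodium reabsorption, 7 were lower and 0 higher in KI, with a median of −1.11; in TPM 5 were lower and 1 higher. Klk1, a kallikrein gene and the most abundant, fell from 3705 to 373 TPM. Its log2 fold change was −3.76 ± 0.57 in scaled counts (3.41e-05) and −3.42 by limma on TPM. Hsd11b2, whose product inactivates glucocorticoids that would occupy the mineralocorticoid receptor, had a log2 fold change of −2.34 ± 0.36 in scaled counts (3.95e-05). The receptor gene Nr3c2 was lower in Hif1a KO than in KI (−0.47 ± 0.12, 0.0335), and the sodium channel subunit gene Scnn1g higher in DKO (1.04 ± 0.28, 0.0285). Tsc22d3 was the 1 gene above Cre(-) in Hif1a KO (1.29 ± 0.30, 0.00164).

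The lists were also read in the knockout groups against Cre(-). In the WNK cascade 8 genes were lower in Hif1a KO, 9 in Hif2a KO and 8 in DKO, with 1 higher in Hif1a KO; of all genes 30.1%, 29.9% and 27.9% were lower. Without the 3 members the median log2 fold changes were −0.09, −0.49 and −0.38. Of the magnesium genes 7 were lower in each group, with 1 higher in Hif2a KO, Slc41a3 (0.84 ± 0.20, adjusted p 0.00214), and of the calcium genes 7 were lower and Trpv6 higher in each. Cnnm3 and Egfr, higher in KI, passed the threshold in no knockout group. Of the aldosterone genes 7, 6 and 6 were lower. In TPM the counts differed, by limma on log2(TPM + 1). Of the WNK cascade 4, 4 and 4 genes were lower and 5, 4 and 4 higher. Of the magnesium genes 6, 5 and 5 were lower and 5, 5 and 5 higher. Of the calcium genes 6, 6 and 5 were lower and 2, 3 and 2 higher. Of the aldosterone genes 3, 3 and 2 were lower, with 1 higher in Hif1a KO. For the same groups 2446, 2195 and 1901 of all 20280 genes in that fit were lower and 9118, 9755 and 10146 higher. In Hif2a KO against KI edgeR's test passed 0 genes in each of the 4 lists, with 2, 1, 5 and 4 at an unadjusted p under 0.05 in the order given; DESeq2 passed 0, 0, 2 and 1, and limma 0 in each. The counts against KI rested on single libraries. The calcium list in DKO went from 3 to 1 without DKO 2 or KI 3 and to 4 without DKO 1, and in Hif1a KO from 2 to 0 without Hif1a KO 1 or 3 or KI 2 or 3 and to 3 without Hif1a KO 2. The aldosterone list went from 1 to 0 in Hif1a KO without Hif1a KO 1 or KI 1 or 2 and to 3 without KI 3, and in DKO from 1 to 0 without DKO 2 or 3 or KI 2 or 3 and to 3 without KI 1. In Hif2a KO, 1 gene of each of these 2 lists passed without KI 1.

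**Figure D4:**
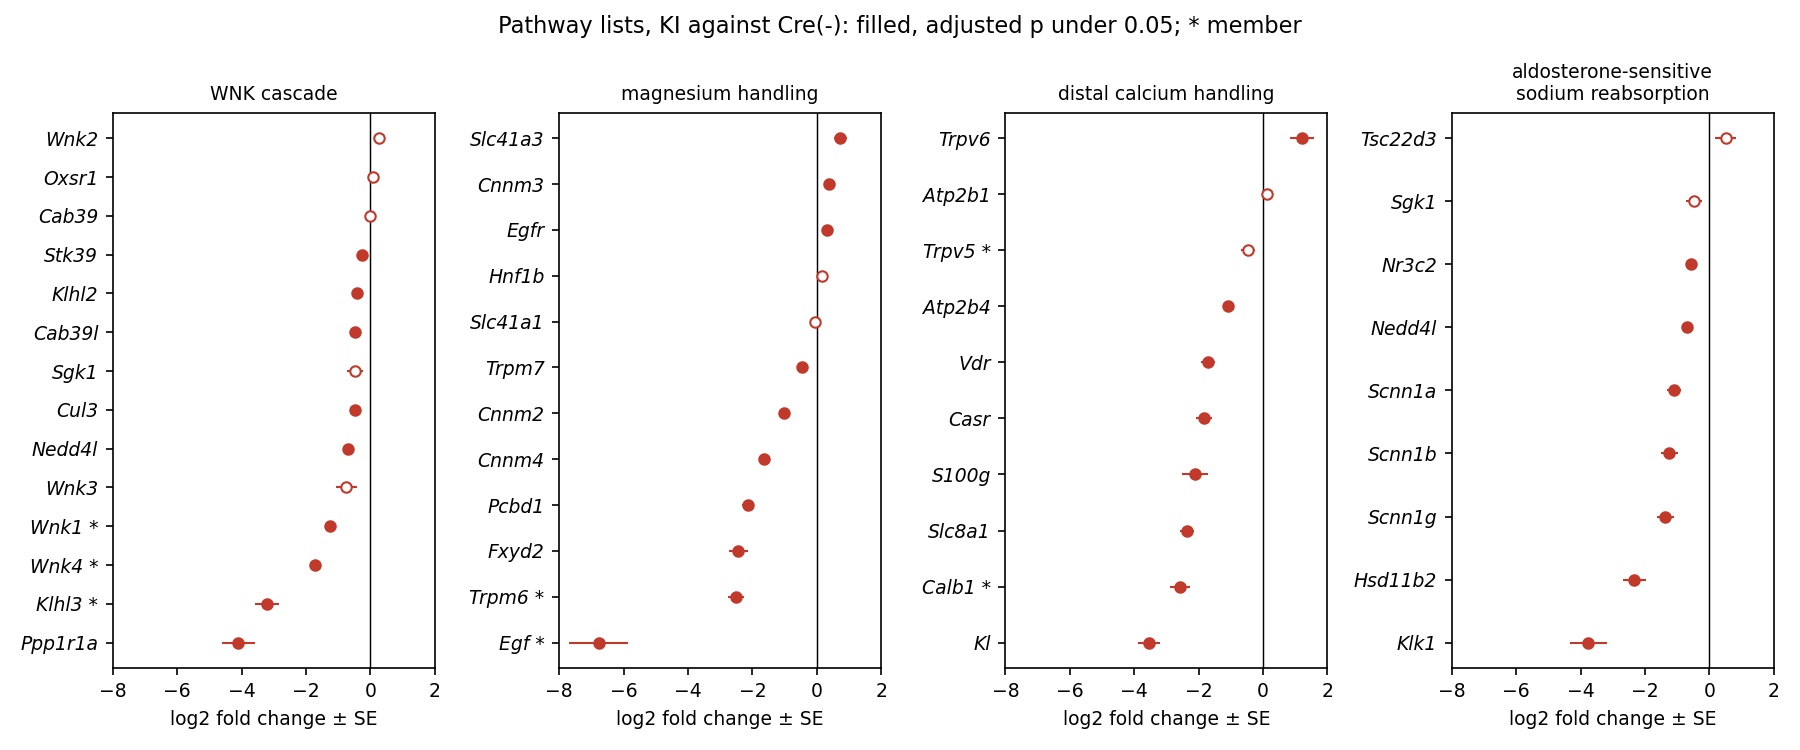
Log2 fold change ± SE in KI against Cre(-) of each gene in the 4 pathway lists, with filled points past an adjusted p of 0.05 and members marked by asterisks. Egf stands farthest to the left, and Trpv6 is the 1 filled point to the right among the calcium genes; in TPM, 5 genes of the WNK cascade, Slc41a1 and Trpv5 change sign.

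The genes most like 3 of the members in log2 CPM over the 17 libraries were sought among 14699 genes. These correlations are descriptions over libraries that fall into Cre(-) and Cre groups. Nearest to Slc12a3 were Slc22a2 (r = 0.994), Mpv17l (0.993), Kcnj1 (0.992), Kl (0.992) and Eci3 (0.991). Nearest to Wnk4 were Idh3g (r = 0.99) and, at 0.989, Sdhb, Rab5c, Prdx5 and D10Jhu81e. Trpv5 had no gene as close: Rtl8a (r = 0.823), Fam19a5 (0.792), Nme5 (0.779), Olfm1 (0.779) and Lmntd2 (0.768).

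Other nephron segments fell as well in KI. Of 10 proximal tubule markers all 10 were lower, with a median log2 fold change of −4.82, larger than that of the distal convoluted tubule members. Their summed level was 7200, 6453, 7313 and 7814 TPM in Cre(-), 400.3, 262 and 355 in KI, 1561, 524, 873 and 787 in Hif1a KO, 1562, 434 and 581 in Hif2a KO, and 900.1, 1461 and 1129 in DKO, and none was at 0. The most abundant was Miox, 3061 TPM in Cre(-) and 119 in KI, and Slc22a8 fell most (−5.93 ± 0.78, adjusted p 8.23e-06). All 8 thick ascending limb markers were lower in KI, with a median of −2.42. Their sum was 2241, 2534, 2819 and 2078 TPM in Cre(-), 946, 541 and 595 in KI, 2364, 1289, 1880 and 1595 in Hif1a KO, 2104, 1269 and 1346 in Hif2a KO, and 1741, 2711 and 2466 in DKO, with Umod the most abundant and none at 0. All 3 KI libraries were below Cre(-), while 1 library of Hif1a KO, 1 of Hif2a KO and 2 of DKO reached its range. The DKO mean of this sum was 1.05-fold below Cre(-) and its KI mean 3.48-fold, which followed Umod, at 1527 TPM in Cre(-), 538 in KI and 1900 in DKO. Without Umod the sum of the 7 others was 2.19-fold below Cre(-) in DKO and 5.71-fold in KI, and no Cre library reached the Cre(-) range. The members' sum was 2.92-fold below in DKO and 4.86-fold in KI. The log2 fold change of Slc12a1, also on the thick ascending limb list, was −3.60 ± 0.40 in KI (1.44e-06), and it was higher than KI in Hif1a KO (1.65 ± 0.36, 0.0195) and DKO (1.68 ± 0.38, 0.0119), while Hif2a KO missed the threshold (1.25 ± 0.37, 0.0955). Several of the 10 genes, Egf, Wnk1 and Kcnj16 among them, are also made in other segments, and the part of those cells in the members' levels was not tested.

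Collecting duct markers moved less as a sum. Of 8 principal cell markers 6 were lower and 1, Aqp3, higher (1.27 ± 0.17, adjusted p 1.21e-05), and the sum was 358, 478, 417 and 444 TPM in Cre(-), 415, 326 and 376 in KI, 463, 399, 364 and 422 in Hif1a KO, 358, 358 and 842 in Hif2a KO, and 586, 474 and 674 in DKO. The groups overlapped. The most abundant was Aqp2 in Cre(-), at 154 TPM, and Aqp3 in KI, at 209 TPM, so the sum hides changes in both directions. Aqp4 was at 0 in KI 3. Of 8 intercalated cell markers 6 were lower and 1, Kit, higher (2.62 ± 0.26, 5.45e-07). Their sum, led by Atp6v1b1 in Cre(-) and by Kit in KI, was 246, 263, 209 and 252 TPM in Cre(-), 171, 129 and 193 in KI, 170.5, 139, 143 and 151 in Hif1a KO, 193, 121 and 169 in Hif2a KO, and 143, 190.2 and 173 in DKO. Every Cre library was below every Cre(-) library. Of 6 podocyte markers 5 were lower, and the sum, led by Podxl in Cre(-) and by Synpo in KI, was 232, 248, 213 and 232 TPM in Cre(-), 117, 81.5 and 112 in KI, 153, 112, 121 and 126 in Hif1a KO, 118, 136 and 122 in Hif2a KO, and 118, 138 and 126 in DKO. Synpo was the 1 not past the threshold, and in TPM it was higher. Podocytes lie outside the tubule, and their summed level too was below Cre(-) in every Cre library. The part of these cell types in the result was not tested.

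**Figure D5:**
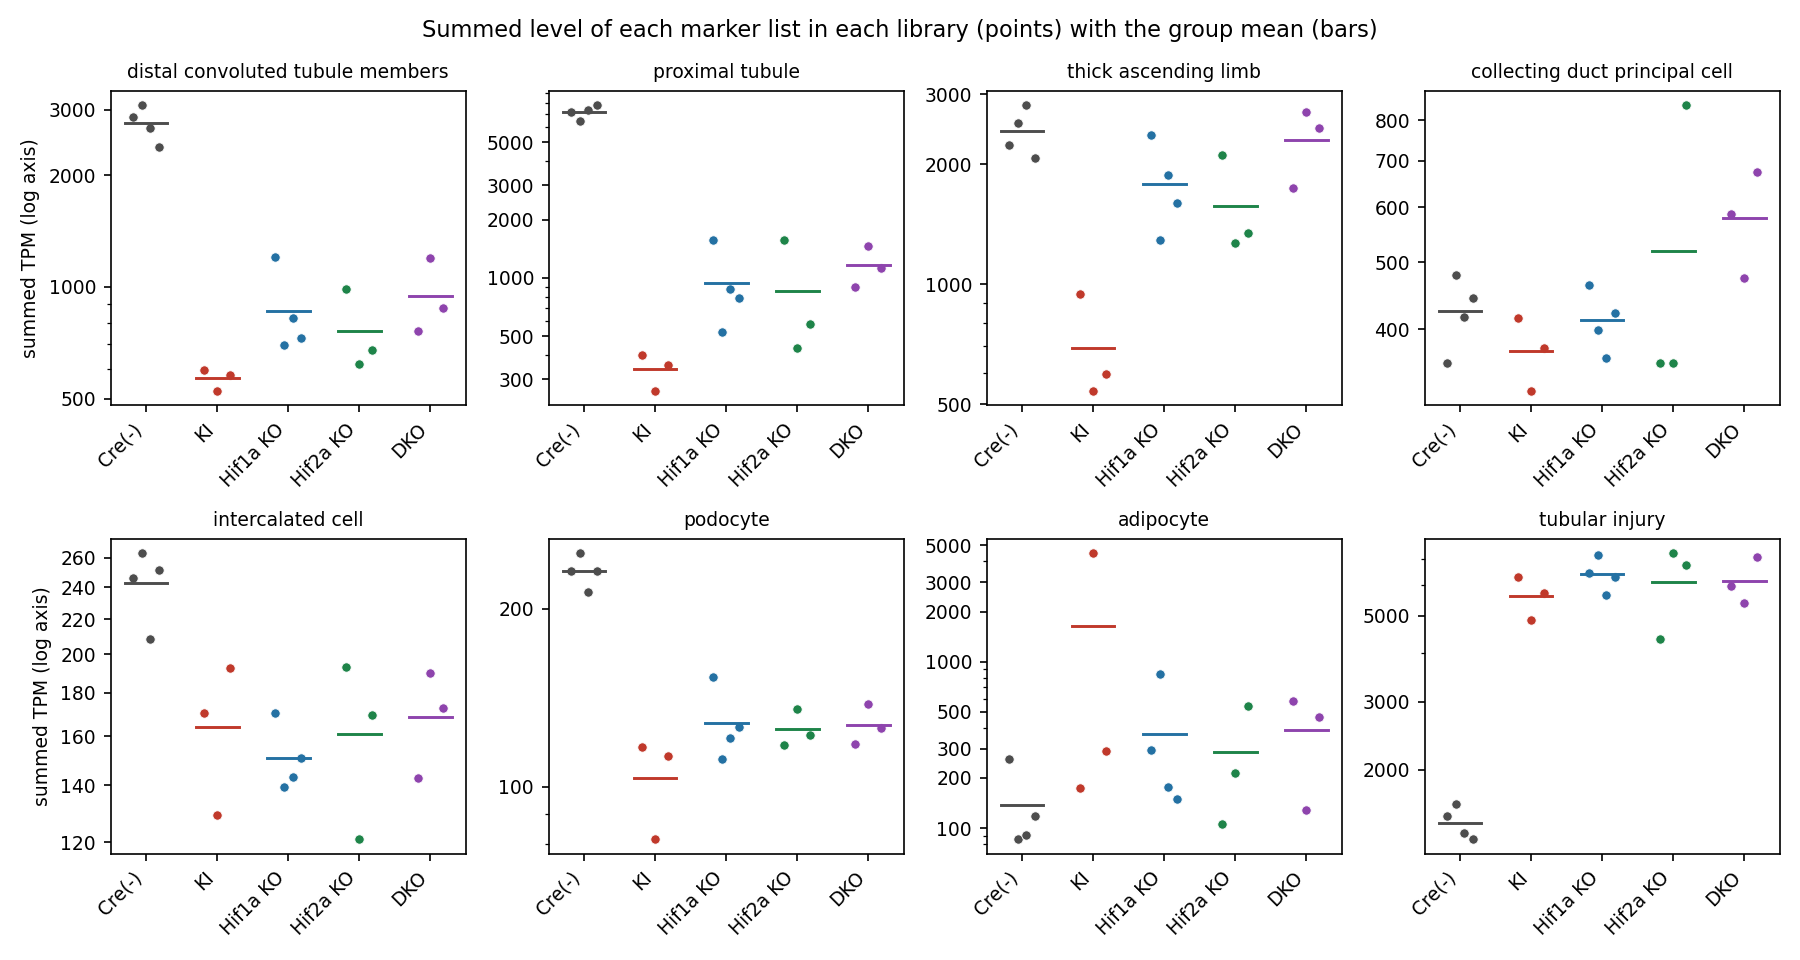
Summed TPM of the 10 members and of 7 marker lists in each library (points, log axes that differ between panels) by group, with the group mean as a bar. For the members and the proximal tubule, intercalated cell and podocyte lists every Cre library is below Cre(-), and for the tubular injury list every one is above. The principal cell list overlaps, and KI 2 stands alone in the adipocyte list at 4476 TPM.

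Markers of injury and of other tissues were read in the same libraries. Of all 17011 genes tested, 5381 were higher and 4981 lower in KI against Cre(-). All 8 tubular injury markers were higher in KI, with a median log2 fold change of 3.57, and their sum, led by Spp1, was 1520, 1629, 1372 and 1323 TPM in Cre(-), 6300, 4873 and 5725 in KI, 6467, 7195, 5656 and 6307 in Hif1a KO, 4347, 7261 and 6777 in Hif2a KO, and 5973, 5391 and 7108 in DKO. Every Cre library was above every Cre(-) library. Lcn2 rose most (5.73 ± 0.46, adjusted p 6.56e-08). Of 8 leukocyte markers 6 were higher, and their sum, led by Lyz2 in Cre(-) and by Cd68 in KI, was 107, 85.0, 87.9 and 84.2 TPM in Cre(-), 2118, 2203 and 1998 in KI, 1210, 1476, 1282 and 1406 in Hif1a KO, 1542, 1669 and 1825 in Hif2a KO, and 1545, 1129 and 1057 in DKO. Cd68 and Lyz2 carried most of it: without them the 6 others summed to a mean of 43.7 TPM in Cre(-) and 75.9 in KI, 1.74-fold higher. Of 8 genes of the response to TFE3 fusions, 6 were higher and 2, Trim63 and Abcb6, lower, and their sum, led by Sqstm1 in Cre(-) and by Gpnmb in KI, was 400.2, 422, 379 and 379.9 TPM in Cre(-), 12710, 13770 and 12780 in KI, 3484, 7384, 4966 and 7887 in Hif1a KO, 5439, 8782 and 10900 in Hif2a KO, and 6377, 3567 and 4115 in DKO. Without Gpnmb the mean sum was 4.10-fold higher in KI than in Cre(-). The sum of all 8 was lowest within Hif1a KO, Hif2a KO and DKO in the libraries in which Slc12a3 was highest. Of 8 adipocyte markers 4 were higher, and the sum, led by Fabp4 in Cre(-) and by Cfd in KI, was 260, 85.6, 90.4 and 118 TPM in Cre(-), 175, 4476 and 292 in KI, 295, 842, 177 and 150.4 in Hif1a KO, 106, 214 and 539 in Hif2a KO, and 578, 128 and 466 in DKO, with Lep at 0 in 2 libraries. KI 2 stood apart at 4476 TPM. Without KI 2, 9 members were past the threshold in KI against Cre(-) too, Slc12a3 with a log2 fold change of −3.59. The calls of members against KI were lost without it, with log2 fold changes in Hif1a KO of 0.97 for Trpm6 (adjusted p 0.0738), 0.39 for Kcnj16 (0.148) and 2.48 for Egf (0.145), and in DKO of 1.33 for Slc12a3 (0.0993) and 2.38 for Egf (0.112). All 5 stayed positive. Of 5 erythrocyte markers 0 passed the threshold in edgeR's test of KI against Cre(-), with 2 at an unadjusted p under 0.05. DESeq2 passed 1, and limma on TPM passed 5, all lower. Against Cre(-), edgeR's test passed 5 of these markers in each of Hif1a KO, Hif2a KO and DKO, DESeq2 2 and limma 5. Their sum, led by Hbb-bs in Cre(-) and Hba-a2 in KI, was 809, 1000, 904 and 1866 TPM in Cre(-), 63.4, 85.2 and 1153 in KI, 284, 75.4, 114 and 68.2 in Hif1a KO, 156, 80.6 and 229.6 in Hif2a KO, and 118, 95.5 and 178 in DKO, and KI 3 alone of the 13 lay in the Cre(-) range. The part of injury, leukocytes, adipocytes and blood in the members' result was not tested.

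Of the 10 skeletal muscle markers 5 had enough counts to test, 2 higher and 2 lower in KI. The sum, led by Mylpf, was 7.70, 6.67, 6.58 and 6.94 TPM in Cre(-), 8.87, 9.83 and 9.10 in KI, 8.03, 12.4, 10.2 and 8.96 in Hif1a KO, 10.6, 10.2 and 11.2 in Hif2a KO, and 11.9, 9.44 and 11.6 in DKO, and 1 to 4 of the 10 were at 0 in a library, among them Myh4 in 16 libraries and Tnnc2 in 8. A count of 0 allows up to 0.122 to 0.182 CPM of the unscaled library total, by counting error only. Of 6 neuron markers 5 were tested and 2, Tubb3 and Syt1, were higher in KI; the sum, led by Gad1 in Cre(-) and Stmn2 in KI, was 2.23, 1.29, 1.52 and 1.97 TPM in Cre(-), 3.89, 3.24 and 4.47 in KI, 2.90, 3.70, 2.5 and 2.23 in Hif1a KO, 2.72, 3.60 and 3.45 in Hif2a KO, and 2.88, 2.42 and 2.90 in DKO, with Snap25 at 0 in 11 libraries. The 4 sex-linked genes other than Xist, which has no entry in the tables, summed to 2.74, 3.46, 3.03 and 2.46 TPM in Cre(-), 3.05, 3.06 and 2.21 in KI, 2.96, 2.92, 2.64 and 2.84 in Hif1a KO, 3.83, 2.20 and 2.36 in Hif2a KO, and 3.34, 3.76 and 3.06 in DKO, most of it Kdm5d, and 2 could be tested. Kdm5d was lower in KI (−0.86 ± 0.19, adjusted p 0.00111), and Uty was not past the threshold. By limma on log2(TPM + 1) Kdm5d was not past it either (−0.12, adjusted p 0.509). Ddx3y had at most 4 counts in a library and was at 0 in 2, and Eif2s3y was at 0 in 11. The sex of the mice was not used, and the part of muscle, neurons and sex in the members' result was not tested.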

How the data were processed

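Kidney RNA of 17 mice in 5 genotype groups was sequenced by the authors, single-end with 75 cycles on stranded mRNA libraries, trimmed with Trim Galore 0.6.6 and cutadapt 2.5, aligned with STAR 2.7.9a and quantified with RSEM 1.3.3. The authors deposited expected counts for each transcript, as estimated by RSEM with no scaling. The authors also deposited TPM for each transcript, made by RSEM from the counts, transcript length and library total. Their methods name human build hg38 and a mouse alternative, GRCm38; the tables list mouse Ensembl transcripts, so GENCODE M21 on GRCm38 was used. Of 119353 transcripts, 116770 (97.8%) matched and were summed to 35971 genes, holding 99.0% to 99.2% of each library's counts. Xist has no entry in the tables.

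Gene counts were rounded, filtered with filterByExpr (count minimum 10), which kept 17011 genes and left out 18960, scaled by TMM and fitted in 1 model of 17 libraries with the quasi-likelihood test of edgeR 4.0.16 in R 4.3.3. P-values were adjusted over all genes kept, with a threshold of 0.05; log2 fold changes are given ± SE. Totals of 16504419 to 24668827 counts set the precision. The share of the internal Wnk1 start was compared by a two-sided exact permutation test. Alternatives were DESeq2 1.42.0, its size factors, no filter, the replicate number as a block, limma 3.58.1 on log2(TPM + 1) and log2(TPM + 0.1), a fit of the 2 groups compared, either pair of Cre(-) libraries alone, and leaving out each library in turn. The tests were tried on simulated data in which 200 of 17011 genes were changed, in KI alone. For KI against Cre(-), 4.9% of edgeR's calls in those data were false, as against 12.2% of DESeq2's. In the real comparison 60.9% of genes passed the threshold, so these rates do not carry over to it. Summaries and plots used pandas 2.3.3, scipy 1.17.1 and matplotlib 3.10.9 in Python 3.11.15.

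The members and lists were chosen with earlier results of these data known. Marker lists covered the WNK cascade, magnesium, distal calcium, aldosterone-sensitive sodium reabsorption, proximal tubule, thick ascending limb, principal and intercalated cells, podocytes, skeletal muscle, adipocytes, leukocytes, erythrocytes, neurons, tubular injury, the response to PRCC-TFE3 and sex. A list of basolateral genes was run too and is not reported here as a list. Beyond the members, the genes named are the 2 most abundant of a list, the 2 with the largest change in KI, up to 6 of each pathway list that passed the threshold against KI in a knockout group, the 5 most like Slc12a3, Trpv5 and Wnk4, and genes said or seen to fall outside this rule, which were chosen after their values were seen.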

Additional observations from a re-analysis of the deposited data

Results flagged for a closer look

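Wnk4 in Cre(-) replicate 4 was above the 3 other controls, at 381 CPM against 298, 298 and 294 CPM, with a gap to the next library of 0.944 of the range. It was the 1 group singled out of 22 groups of 4 libraries tested for a distant highest or lowest library, and chance singles out about 1 in 20 groups. In TPM it was 141 against 114, 123 and 108, a gap of 0.554 of the range, which the same test does not single out. Replicate 4 carries no floxed HIF allele, like replicate 3. The cause was not tested.

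Tsc22d3, a glucocorticoid-induced gene of the aldosterone list, was higher in Hif1a KO than in Hif2a KO by a log2 fold change of 1.66 ± 0.34 (adjusted p 0.0437, edgeR). It was the 1 gene of the members and 4 pathway lists that differed between those 2 groups. DESeq2 passed it too (6.72e-05), as did a fit of the 2 groups (0.0172) and a fit with no filter on low counts (0.0335), but limma on log2(TPM + 1) did not (0.0763), nor did the fit with the replicate number as a block (1.54, 0.116). It missed the threshold without Hif1a KO 1 (0.111), Hif1a KO 2 (0.0558), Hif1a KO 3 (0.0917), Hif1a KO 4 (0.125), Hif2a KO 2 (0.174) or Hif2a KO 3 (0.211), and with KI 2 out of the shared fit (0.0569). In these settings its log2 fold change was 1.50 to 1.72. The cause was not tested.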

How the results depend on the processing

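In each setting run, 9 or 10 members passed the threshold against Cre(-) and 0 in Hif2a KO against KI and between knockout groups. They were not the same 9 in each: on log2(TPM + 0.1) in Hif2a KO, Pvalb no longer passed (−1.25, adjusted p 0.0505) and Trpv5 did, higher (0.60, 0.0184). In Hif1a KO against KI, 3 members passed, and 4 with DESeq2, 2 without a filter on low counts (Kcnj16 at an adjusted p of 0.0542), 1 with the replicate block, 1 with limma on log2(TPM + 1), 1 on log2(TPM + 0.1), 0 in a fit of the 2 groups, and 0 to 3 with 1 library left out. In DKO against KI, 2 passed, 1 in the 2-group fit and 0 to 2 with 1 library left out.

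Trpv5 changed direction. In KI against Cre(-) it was 0.026 on log2(TPM + 1) and 0.028 on log2(TPM + 0.1). In Hif1a KO it was 0.001 without a filter, 0.38 and 0.40 in TPM, 0.19 against Cre(-) 3 and 4, and −0.23 to 0.14 with 1 library left out. In Hif2a KO it was −0.043 with the replicate block, −0.11 against Cre(-) 1 and 2, and −0.083 to 0.16 with 1 library left out. In DKO it was 0.39 and 0.42 in TPM and 0.045 against Cre(-) 3 and 4.

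In Hif2a KO against KI, Wnk1 was −0.006 with the replicate block and −0.15 to 0.11 with 1 library left out, and Pvalb −0.10 to 0.73. The Wnk1 share against Cre(-) 3 and 4 was −1.57 (exact permutation p 0.0762), and −2.83 to −1.61 with 1 library left out. The causes were not tested.

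Of the single-gene values under alternatives, 654 against Cre(-) kept direction and side of the threshold, 18 reversed, 7 newly passed and 1 no longer did; against KI these were 361, 6, 1 and 32. A setting with 1 library left out may leave 2 in a group. Xist as a covariate could not be fitted, and coding transcripts alone could not give the Wnk1 share, since the internal start is annotated as non-coding. Replicate numbers did not pair (median correlation −0.03). Levels of Pvalb and of the internal Wnk1 start rest on as few as 21 and 9 counts.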
